A study of Mus musculus with 12 samples.

Results

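The genes described here are 10 inflammatory mediators and regulators, IL1A, IL1B, IL1RN, IL1R2, IL6, TNF, OSM, LIF, PTGS2 and NOS2, chosen by name as the rows of the deposited table of 24197 genes that carry these symbols. All 10 were found, each in 1 row, and symbols are written in capitals as the table gives them. They were followed in tumors of E0771, a carcinoma line of the mouse mammary gland, implanted into the fourth fat pad of C57/BL6N females, a host of the same strain background with an intact immune system. Mice received cyclophosphamide (CPA), an alkylating chemotherapy drug, or its PBS vehicle, and the comparison asks which transcripts differ from vehicle on each of the days that follow. Of the 6 groups, 1 was vehicle (mice of 9 to 10 weeks). Others received CPA at 130 mg/kg on day 0. Their tumors were taken 1, 2 or 3 days later (9 to 10 weeks) or 6 days later (11 weeks). The last received this dose on day 0 and again on day 6, with tumors taken on day 12 (12 weeks). No vehicle group matched the age of the mice of day 6 or day 12. On day 6 an effect of CPA thus cannot be told apart from the time and the age of the mice. On day 12 the time, the second injection and the age of the mice cannot be told apart. Each group had 2 RNA-seq libraries, each made from RNA pooled from 2 to 3 tumors, so a library averages over mice. E0771 was the only tumor line, and bulk tumor RNA mixes carcinoma cells with host cells. The labels of 1 day 1 library were at odds with each other, with CPA in its title and vehicle in its treatment entry. It was kept in day 1, as its title and the authors' table have it.

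IL-1α (IL1A) and IL-1β (IL1B) are the agonists of the IL-1 receptor, made above all by activated myeloid cells. The receptor antagonist IL1RN and the decoy receptor IL1R2 oppose them. TNF acts through its own pair of receptors and, like IL-1, switches on NF-kB, which in turn drives IL6, PTGS2 and further TNF. IL-6, oncostatin M (OSM) and leukemia inhibitory factor (LIF) belong to the cytokine family that signals through the shared receptor subunit gp130 and STAT3. PTGS2 (cyclooxygenase 2) is the inducible enzyme at the head of prostaglandin synthesis, and NOS2 is the inducible nitric oxide synthase of activated macrophages. In tumors these genes mark inflammation, which can come from infiltrating myeloid cells, from stroma or from the carcinoma cells.

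Most of these mRNAs are short-lived, because AU-rich elements in their 3′ untranslated regions (UTRs), built from repeats of ATTTA, recruit decay factors such as tristetraprolin. In the longest annotated 3′ UTR of each gene (GENCODE M21, GRCm38), 8 of the 10 genes held at least 1 ATTTA, counted on the sense strand with overlapping matches included. The share of all genes with at least 1 match was not counted, so this count has no background beside it. The windows of 30 bases with the most matches are shown for TNF and for the 3 genes whose day 12 libraries differed most, with ATTTA in capitals, as DNA letters from 5′ to 3′.
TNF: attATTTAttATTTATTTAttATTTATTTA
PTGS2: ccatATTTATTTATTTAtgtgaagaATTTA
IL1B: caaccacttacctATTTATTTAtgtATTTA
IL6: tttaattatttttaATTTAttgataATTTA
These are bases 437 to 466 of the 3′ UTR of TNF on chromosome 17, 12 to 41 of PTGS2 on chromosome 1, 192 to 221 of IL1B on chromosome 2 and 1364 to 1393 of IL6 on chromosome 5. TNF had 10.5 ATTTA per kilobase of 3′ UTR, IL1B 8.71, IL6 6.00, NOS2 5.98, OSM 5.90 and PTGS2 5.73. These 6 genes lay above the 95th percentile of all genes with a 3′ UTR of 200 bases or more (5.42), whose median was 1.49. IL1A (2.72) and LIF (2.20) lay between the median and that percentile. IL1RN had 0 matches in 1864 bases, and IL1R2 had 0 in a 3′ UTR of only 24 bases. The antagonist and the decoy receptor thus lacked, in these annotated UTRs, the letters that the other 8 carry, though 24 bases leave the decoy little room for a match.

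**Figure D1:**
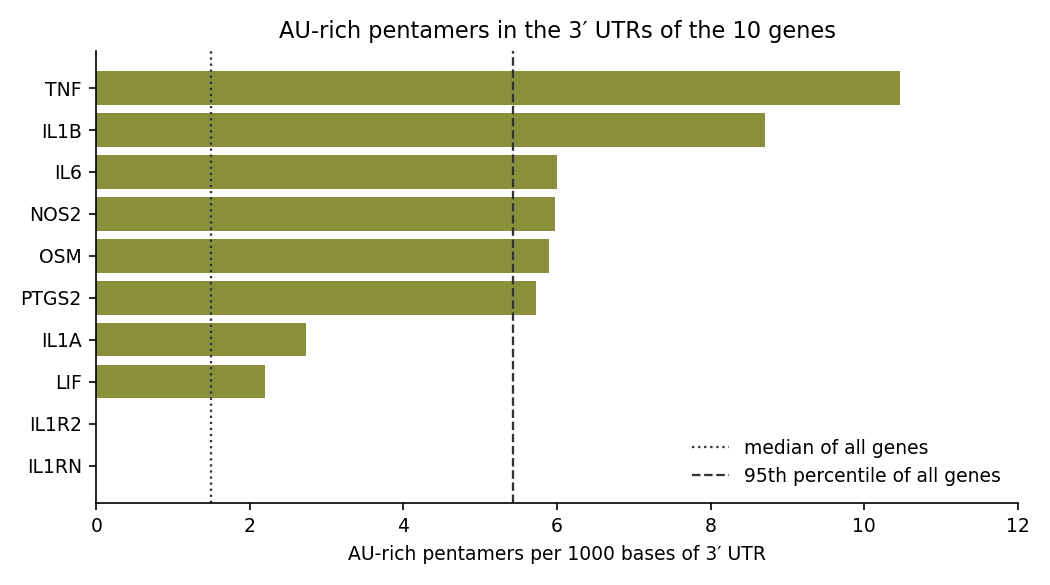
AU-rich pentamers (ATTTA) per kilobase of the longest annotated 3′ UTR of each gene (x axis), with the median (dotted, 1.49) and the 95th percentile (dashed, 5.42) of all genes. TNF and IL1B stand highest at 10.5 and 8.71, and IL1RN and IL1R2 have none.

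Promoter sequences (RefSeq, GRCm38.p6, 250 bases before to 50 after the start) were matched for 8 of the 10 genes, all but OSM and NOS2. Searched on both strands, the NF-kB motif was present in IL6 and LIF, against 8.46% of 32851 promoters of all genes. The stretch of the IL6 promoter that holds it, 44 bases before the start, is shown as the NF-kB match nearest a start among the 8 genes, with the match in capitals (GRCm38.p6, plus strand, chr5:30013040-30013109).
IL6: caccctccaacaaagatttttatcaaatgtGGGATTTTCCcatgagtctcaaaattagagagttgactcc
The AP-1 motif TGANTCA was found in 4 of the 8 genes (7.81% of all promoters) and the C/EBP motif TTNNGNAA in 6 (40.7%). A match is a description of the letters and not a bound site.

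Each deposited value is the mean of the FPKM (reads of a gene scaled by its length and by the mapped total of the library) of the 2 libraries of a group. Because both terms are whole reads divided by fixed totals, the reads of each library could be worked out from the low values of the table, for 20026 of the 20186 rows above 0, these 10 genes included. The libraries recovered in this way carry no pool number and are called the deeper and the shallower library of their group, and values are given in that order. Their totals were 33586715 to 46414557 for vehicle and days 1 to 6, and 35703972 and 18726093 on day 12. The 2 day 12 libraries stood apart from each other. Of 11726 genes at a mean of 0.5 FPKM or more, 10.5% differed by over 2-fold between them on log2(FPKM + 0.1), against 1.12% to 3.60% between the libraries of the other groups. Of the 10 genes, 8 differed by over 2-fold between the day 12 libraries on that scale and 0 did so in any other group. IL1A, LIF and PTGS2 were below a mean of 0.5 FPKM and so are not among the 11726 genes. The added 0.1 FPKM damps low levels, and in plain FPKM IL1A, IL6, IL1R2, NOS2 and PTGS2 each differed by over 2-fold in some earlier group.

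The marker lists of other cells differed between the day 12 libraries too. Summed over 11 neutrophil genes the level was 3.86 and 4.74 FPKM in vehicle, 15.6 and 11.1 on day 6, and 587 and 36.1 on day 12, where S100A8 had 255 and 11.3 FPKM and RETNLG 41.5 and 2.20. CAMP and MPO, which neutrophil precursors make, were at 0 in both vehicle libraries. The 11 monocyte and macrophage genes summed to 219 to 256 FPKM in vehicle, 746 to 775 on day 6, and 1882 and 1029 on day 12. The 10 adipocyte genes were highest in the shallower day 12 library, with 1089 and 10040 FPKM on day 12 against 65.5 and 125 in vehicle. The 12 genes of mammary epithelium and tumor summed to 96.5 and 311 FPKM on day 12 (112 and 149 in vehicle), so both held epithelial RNA. This sum hides opposite courses. KRT8, most of it in vehicle, had 107 and 143 FPKM there and 67.3 and 97.1 on day 12, and ERBB2 3.57 and 3.59 and then 1.47 and 1.51. KRT19 went from 0.529 and 1.37 FPKM to 9.83 and 144, KRT18 from 0.378 and 0.658 to 7.30 and 46.5, and EPCAM from 0.160 and 0.218 to 2.39 and 10.2. The deeper day 12 library was thus high in neutrophil genes and the shallower in fat genes, and what part these cells had in the levels of the 10 genes was not tested. In bulk tumors, more cells of a type and more RNA per cell cannot be told apart.

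**Figure D2:**
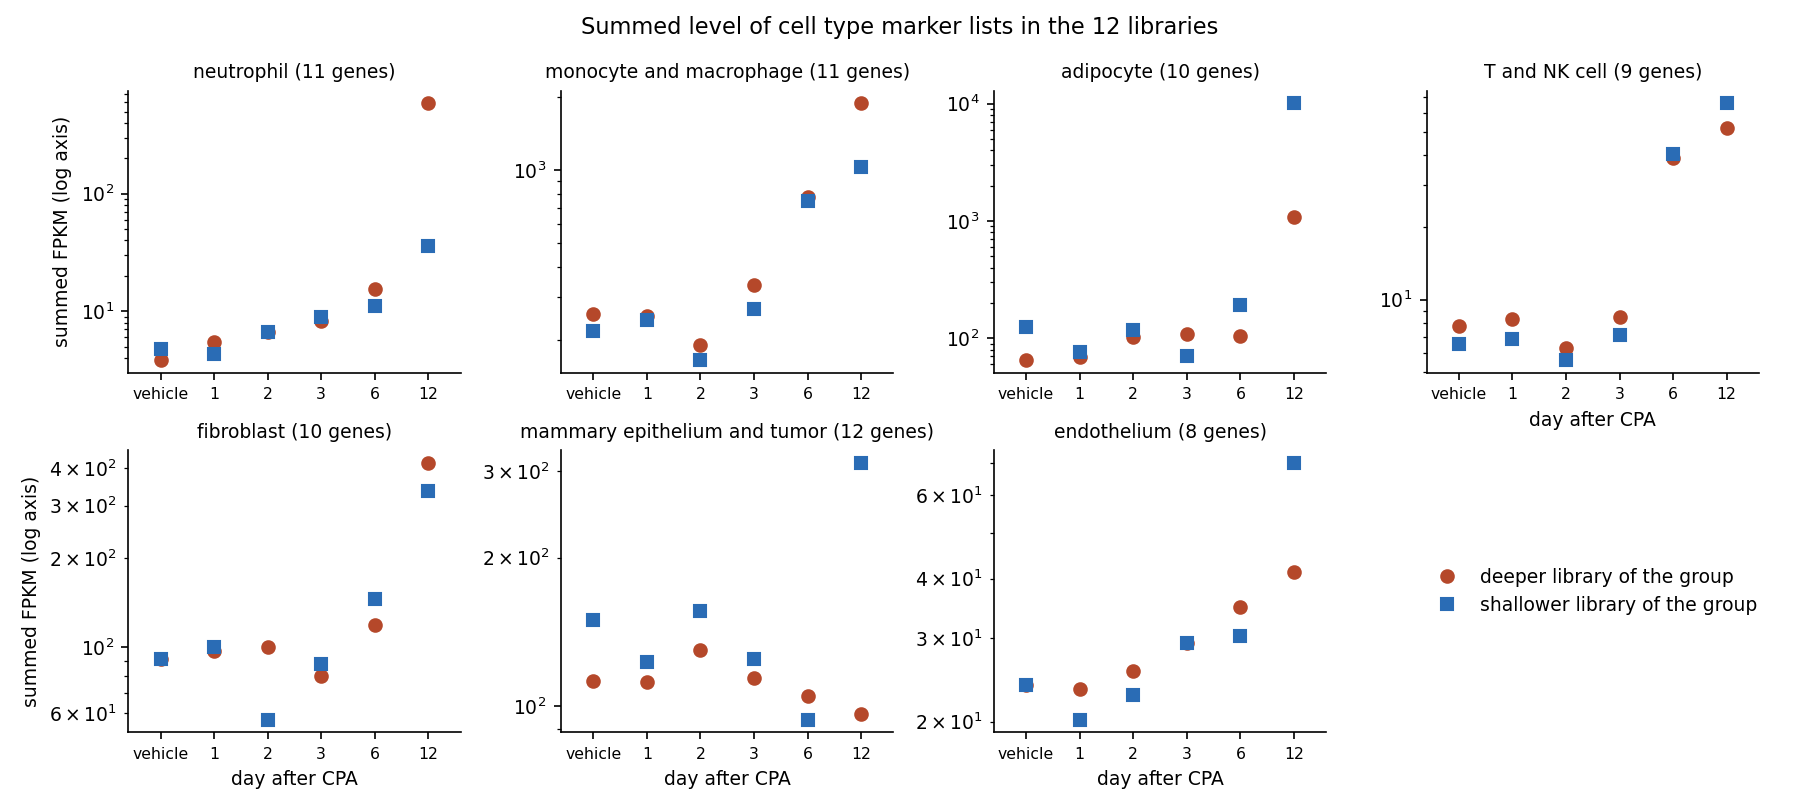
Summed FPKM of 7 cell type marker lists (log axes) in the deeper (circles) and shallower (squares) library of each group, by day after CPA. Neutrophil genes reach 587 FPKM in the deeper day 12 library and 36.1 in the shallower, while adipocyte genes are at 1089 and 10040.

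Between libraries, levels were tested with limma on log2(FPKM + 0.1) over 13992 genes at a mean of 0.1 FPKM or more, and a gene was called where the adjusted p was below 0.05 and the difference from vehicle over 2-fold. In the sentences that follow, a log2 difference is this fitted difference ± its SE (n = 2 libraries per group). By that rule 0 of the 10 genes were called on days 1, 2 and 3, only TNF was called on day 6, and IL1A, IL1RN, IL1R2, TNF, OSM and NOS2 were called higher on day 12. Over all genes the share called higher was 0%, 0.114%, 0.407%, 4.88% and 17% for days 1, 2, 3, 6 and 12. None of the 10 was called lower on any day, where the shares of all genes were 0%, 0.0429%, 0.0786%, 0.186% and 8.8% in the same order. Without the adjustment, 353 of all genes (2.52%) had p below 0.05 in the higher direction on day 1 and 205 (1.47%) in the lower, and of the 10 genes none did on day 1. TNF alone did on days 2 and 3, in the higher direction, where 4.43% and 7.22% of all genes did. In the lower direction 3.71% and 2.67% of all genes did on these days. On the deposited group values with 0.1 FPKM added, and with no test, 3 of the 10 genes were over 2-fold higher on day 6 (IL1RN, TNF and NOS2) against 6.39% of all genes above 0 FPKM, and 9 on day 12 (all but LIF) against 16.7%. In plain FPKM the group values of IL1A (3.31-fold) and IL1R2 (2.05-fold) were also over 2-fold higher on day 6. Genes at 1 FPKM or more had a median log2 difference of -0.27 on day 12, so the rises on that day were larger still relative to the typical gene.

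**Figure D3:**
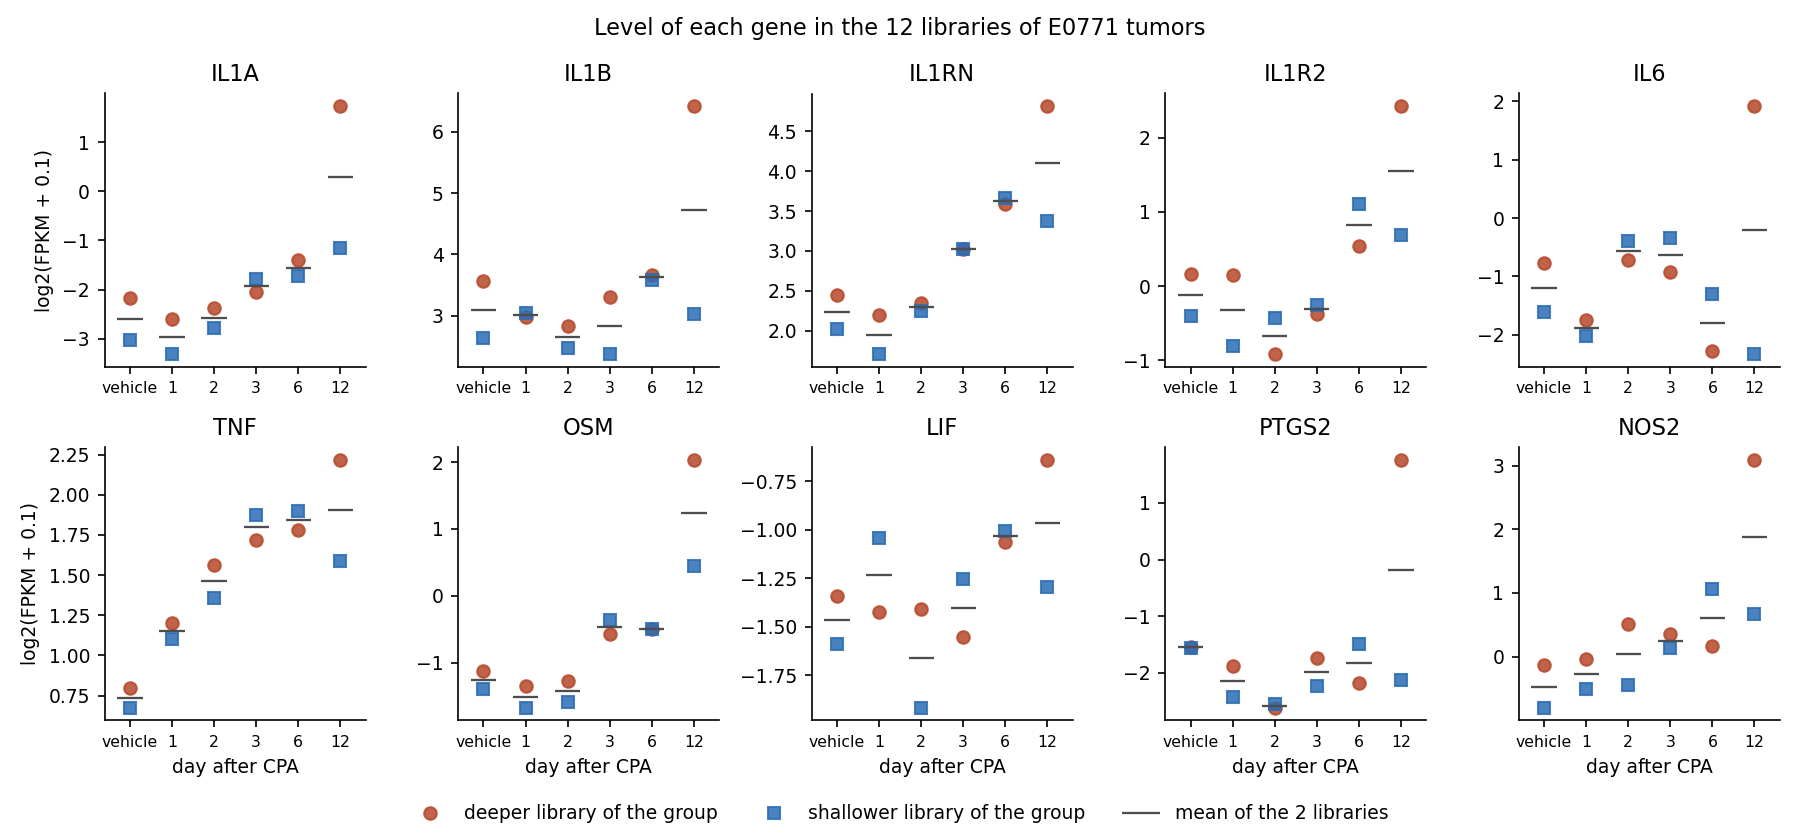
Level of each of the 10 genes, as log2(FPKM + 0.1), in the deeper (circles) and shallower (squares) library of each group, with the mean of both as a bar. TNF is above both vehicle libraries in all 10 CPA libraries, and on day 12 IL1B, IL6 and PTGS2 are high in the deeper library alone.

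TNF was the only one of the 10 genes called before day 12. It had 1.64 and 1.49 FPKM in vehicle, 2.20 and 2.05 on day 1, 2.86 and 2.47 on day 2, 3.20 and 3.57 on day 3, 3.34 and 3.63 on day 6, and 4.56 and 2.91 on day 12. All 10 CPA libraries were above both vehicle libraries. The log2 difference was 1.06 ± 0.21 on day 3 (adjusted p = 0.062), 1.11 ± 0.21 on day 6 (adjusted p = 0.014) and 1.17 ± 0.21 on day 12 (adjusted p = 0.0019). With both day 12 libraries left out of the fit, TNF was called on day 3 as well (adjusted p = 0.013). The day 6 call was lost without either vehicle library or either day 6 library. Without the deeper day 12 library the day 12 difference was 0.85, short of 2-fold, with an adjusted p of 0.0030.

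The receptors of TNF followed different courses. TNFRSF1B, the receptor mainly of leukocytes, had 12.5 and 12.9 FPKM in vehicle and 33.4 and 24.9 on day 12. Its log2 difference was 1.18 ± 0.14 on day 12 (adjusted p = 0.00031). TNFRSF1A, the receptor of most cell types, ranged over 31.9 to 35.2 FPKM in vehicle and 25.2 to 35.9 on day 12, where its log2 difference was -0.16 ± 0.15 (adjusted p = 0.41). Beside the shares of all genes called higher (4.88% on day 6 and 17% on day 12), the counts of a TNF and NF-kB list were near the background. Of its 27 genes, 2 were called higher on day 6 (TRAF1 and BIRC3) and 6 on day 12 (LTA, LTB, TNFRSF1B, BIRC3, TNFAIP3 and TNIP3), with a list median of 0.16 on day 12 against -0.15 over all genes tested. TRAF1, an adaptor of TNF receptors, had 5.21 and 5.27 FPKM in vehicle, 10.4 and 10.7 on day 3, and 10.2 and 11.5 on day 6 (log2 difference on day 6 1.04 ± 0.12, adjusted p = 0.0029). TNFAIP3 (A20), which shuts off NF-kB, rose on day 12 with 6.27 and 4.53 FPKM against 2.32 and 2.43 in vehicle, and BIRC3, an inhibitor of apoptosis that NF-kB induces, with 7.33 and 4.43 against 2.66 and 2.05. LTB, a TNF family ligand of lymphocytes, was higher in the shallower day 12 library (7.24 and 15.9 FPKM), unlike TNF. Without the deeper day 12 library 4 of the list were called, TNFRSF1B, BIRC3 and TNFAIP3 no longer among them, against 18.8% of all genes, and without the shallower 9, against 15.4%. ZC3H12A, a nuclease that degrades inflammatory mRNAs, had 6.40 and 2.34 FPKM on day 12 against 2.43 and 2.20 and was not called.

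Of the IL-1 agonists, IL1B was the most abundant of the 10 genes and IL1A the least in vehicle tumors. IL1B had 11.7 and 6.11 FPKM in vehicle, 7.74 and 8.14 on day 1, 6.98 and 5.47 on day 2, 9.78 and 5.06 on day 3, 12.5 and 11.9 on day 6, and 85.7 and 8.05 on day 12. The deeper day 12 library stood far above the others, which reached 12.5 FPKM, and the shallower lay between the vehicle libraries. The log2 difference on day 12, 1.63 ± 0.85, was not called (adjusted p = 0.13). It was 3.32 with the deeper library alone (adjusted p = 0.00083) and -0.071 with the shallower alone (adjusted p = 0.89), where the lone library is assumed to vary like the other groups. IL1A had 0.123 and 0.0228 FPKM in vehicle, 0.0655 and 0 on day 1, 0.0926 and 0.0452 on day 2, 0.141 and 0.190 on day 3, 0.278 and 0.204 on day 6, and 3.25 and 0.352 on day 12. These low levels rest on 0 to 24 reads a library through day 6, where 0 reads allow up to 0.0343 FPKM as the level of 3 reads and 0.0422 as the 95% exact Poisson limit, and on 229 and 13 reads on day 12. The day 3, day 6 and day 12 libraries all lay above both vehicle libraries, and the log2 difference on day 12 was 2.89 ± 0.76 (adjusted p = 0.012). It was 1.45 without the deeper library (adjusted p = 0.023), and the call was lost without the shallower vehicle library (2.47, adjusted p = 0.071). In mm9 the genes lie side by side on chromosome 2, IL1A at 129125345 to 129135708 and IL1B at 129190315 to 129196856.

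Both opponents of IL-1 were called on day 12 and lay above vehicle in both day 12 libraries. IL1RN had 5.35 and 3.95 FPKM in vehicle, 4.48 and 3.16 on day 1, 4.97 and 4.62 on day 2, 8.06 and 8.01 on day 3, 11.9 and 12.6 on day 6, and 28.1 and 10.3 on day 12. The vehicle libraries and those of days 1 and 2 were all lower than those of days 3, 6 and 12. The log2 difference was 0.79 ± 0.38 on day 3 (adjusted p = 0.55), 1.40 ± 0.38 on day 6 (adjusted p = 0.064) and 1.87 ± 0.38 on day 12 (adjusted p = 0.0036). Without both day 12 libraries in the fit, the day 6 difference was called (adjusted p = 0.0039), as it was with limma voom on the recovered reads (adjusted p = 0.044). Without the deeper library the day 12 difference was 1.15 (adjusted p = 0.0028). IL1R2 had 1.02 and 0.652 FPKM in vehicle, 0.428 to 1.01 over the libraries of days 1 to 3, 1.36 and 2.06 on day 6, and 5.30 and 1.51 on day 12. Its log2 difference on day 12 was 1.69 ± 0.53 (adjusted p = 0.026), and 0.81 without the deeper library (adjusted p = 0.15). The call was also lost without the deeper vehicle library (1.97, adjusted p = 0.054) or the shallower (1.40, adjusted p = 0.12).

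The ratio of the antagonist IL1RN to IL1B within a library, each in FPKM, was 0.457 and 0.646 in vehicle, 0.955 and 1.06 on day 6, and 0.328 and 1.28 on day 12. The day 12 libraries thus held the lowest ratio of the 12 libraries and the second highest, after the shallower day 3 library at 1.58. The ratio is a description, with no test.

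The chains of the IL-1 receptor changed in opposite directions on day 12. IL1R1, the binding chain, rose from 0.700 and 0.433 FPKM to 2.40 and 1.37 (log2 difference 1.55 ± 0.29, adjusted p = 0.0024). IL1RAP, the accessory chain that signaling requires, fell from 9.31 and 7.56 FPKM to 3.62 and 1.22 (log2 difference -1.94 ± 0.38, adjusted p = 0.0033). Of 19 genes tested of an IL-1 and IL-18 list, 4 passed in the higher direction on day 6 and 7 on day 12, and only IL1RAP was called lower. The list median on day 12 was 0.66 against -0.15 over all genes tested, where the shares called higher were 4.88% (day 6) and 17% (day 12). Without the deeper day 12 library NLRP3 was lost, and the medians were 0.56 and -0.18. Without the shallower they were 0.99 and -0.12. IL18BP, the soluble binder of IL-18, had 4.95 and 3.28 FPKM in vehicle, 10.9 and 7.07 on day 3, 20.7 and 18.3 on day 6, and 32.4 and 25.4 on day 12. Its log2 difference was 2.24 ± 0.24 on day 6 (adjusted p = 0.0023) and 2.80 ± 0.24 on day 12 (adjusted p = 8.1e-05). PYCARD, the adaptor of inflammasomes, rose on both days and reached 13.6 and 15.9 FPKM on day 12 against 2.30 and 2.47. IL18RAP, the accessory chain of the IL-18 receptor, also rose on both days (2.11 and 2.08 FPKM on day 6, 2.58 and 2.11 on day 12, 0.869 and 0.519 in vehicle). NLRP3, the inflammasome sensor, was called on day 12 with 3.15 and 0.757 FPKM against 0.537 and 0.430, and IRAK3, which dampens IL-1 receptor signaling, with 2.07 and 0.917 against 0.289 and 0.250.

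IL6 was among the genes that split most on day 12. It had 0.486 and 0.227 FPKM in vehicle, 0.198 and 0.145 on day 1, 0.504 and 0.657 on day 2, 0.427 and 0.692 on day 3, 0.105 and 0.304 on day 6, and 3.68 and 0.0983 on day 12. The deeper day 12 library held 143 reads and the shallower 2, for which the 95% exact Poisson interval is 0.0119 to 0.355 FPKM (counting error only, and amplified reads are not independent molecules). The log2 difference on day 12 was 0.98 ± 1.06 (adjusted p = 0.46), and the sign turned without the deeper library (-1.14, adjusted p = 0.076). On days 1 to 6 the log2 differences ran from -0.70 to 0.63, none of them called.

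OSM was the only one of the 3 IL-6 family ligands called on day 12. It had 0.358 and 0.283 FPKM in vehicle, 0.294 and 0.213 on day 1, 0.315 and 0.234 on day 2, 0.571 and 0.678 on day 3, 0.611 and 0.607 on day 6, and 4.01 and 1.26 on day 12. The libraries of days 3, 6 and 12 all lay above both vehicle libraries. The log2 difference was 0.76 ± 0.43 on day 6 (adjusted p = 0.43) and 2.50 ± 0.43 on day 12 (adjusted p = 0.0017), and 1.70 on day 12 without the deeper library (adjusted p = 0.00098). Day 12 also exceeded day 6 for OSM, by 1.74 ± 0.43 (adjusted p = 0.014), a rule that called 8.65% of all genes and none of the other 9. Without the deeper day 12 library this difference was 0.94 (adjusted p = 0.019). LIF was the flattest of the 10 genes, with 0.294 and 0.233 FPKM in vehicle, 0.165 to 0.398 over the libraries of days 1 to 6, and 0.542 and 0.308 on day 12. Its log2 difference on day 12 was 0.50 ± 0.31 (adjusted p = 0.21).

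Of the receptors of this family, the shared gp130 subunit IL6ST had 4.38 and 3.27 FPKM in vehicle and 4.84 and 5.50 on day 12 (log2 difference 0.44 ± 0.22, adjusted p = 0.12). LIFR rose from 0.228 and 0.191 FPKM to 0.835 and 1.41 on day 12 (1.94 ± 0.34, adjusted p = 0.0019). OSMR, the specific chain for OSM, had 1.38 and 0.790 FPKM in vehicle and 2.24 and 1.77 on day 12, a log2 difference of 0.87 ± 0.26 (adjusted p = 0.021) that was under 2-fold with both day 12 libraries in the fit. IL6RA had 6.11 and 5.09 FPKM in vehicle and 4.02 and 4.39 on day 12, a log2 difference of -0.40 ± 0.13 (adjusted p = 0.033), also under 2-fold. Of 19 genes tested of the IL-6 family list, 1 was called higher on day 6 (IL27, a subunit of the cytokine IL-27 made by myeloid cells, log2 difference 1.77 ± 0.31, adjusted p = 0.010) and 5 on day 12. These were LIFR, IL11RA1, IL27, IL27RA and JAK2. Over all genes 4.88% and 17% were called higher on these days, so the day 6 count was at the background, and the list median on day 12 was 0.29 against -0.15. Without the deeper day 12 library JAK2 was lost, and the list median was -0.04 against -0.18 over all genes tested. Without the shallower IL27RA was lost, and the medians were 0.22 and -0.12. IL11RA1, the binding chain for IL-11, was highest in the shallower day 12 library, with 20.3 and 45.5 FPKM against 4.65 and 6.61 in vehicle. CLCF1, a ligand of the family, went from 10.1 and 7.33 FPKM to 6.13 and 3.59 (log2 difference -0.86 ± 0.29, adjusted p = 0.031, under 2-fold).

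PTGS2 was low in every group but for 1 library. It had 0.244 and 0.238 FPKM in vehicle, 0.172 and 0.0872 on day 1, 0.0630 and 0.0718 on day 2, 0.201 and 0.113 on day 3, 0.121 and 0.257 on day 6, and 3.30 and 0.129 on day 12. Of the 10 CPA libraries, 8 lay below both vehicle libraries, among them both of day 2, when the group value was over 2-fold lower and the log2 difference was -1.03 ± 0.95 (adjusted p = 0.87). The deeper day 12 library held 489 reads and the shallower 10. The log2 difference on day 12 was 1.37 ± 0.95 (adjusted p = 0.25), 3.32 with the deeper library alone (adjusted p = 0.00056) and -0.58 with the shallower alone (adjusted p = 0.23).

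Most other enzymes and receptors of the prostanoid and leukotriene pathway were higher on day 12 in both libraries. Of 21 genes tested of this list, 5 passed as higher on day 6 and 14 on day 12, and none as lower, with a list median of 0.66 on day 6 and 1.69 on day 12 against 0.08 and -0.15 over all genes tested, whose shares called higher were 4.88% and 17%. The list median on day 12 was 1.70 without the deeper day 12 library and 1.61 without the shallower, against -0.18 and -0.12 over all genes tested. PTGS1, the constitutive cyclooxygenase, rose from 0.200 and 0.165 FPKM to 1.08 and 1.96 on day 12 (2.47 ± 0.35, adjusted p = 0.00071). TBXAS1, the thromboxane synthase of platelets and macrophages, had 1.45 and 0.999 FPKM in vehicle, 4.78 and 5.34 on day 6, and 12.7 and 10.6 on day 12 (3.17 ± 0.26, adjusted p = 7.1e-05). PLA2G4A, the phospholipase that frees arachidonic acid, rose on both days and had 3.92 and 2.29 FPKM on day 12 against 0.983 and 0.426. ALOX5AP, the activating protein of leukotriene synthesis, had 88.6 and 59.7 FPKM on day 12 against 16.6 and 16.6 in vehicle. HPGDS, the prostaglandin D2 synthase of mast cells and macrophages, had 6.32 and 4.36 against 1.30 and 1.00. LTC4S, the leukotriene C4 synthase, was highest in the shallower day 12 library, with 13.5 and 44.0 FPKM against 1.20 and 1.15. Of the prostaglandin E2 receptors, PTGER3 was called on day 12 alone, while PTGER4 and PTGER2 rose on both days, PTGER4 from 0.583 and 0.513 FPKM to 1.26 and 1.56 on day 6 and 2.64 and 4.59 on day 12, and PTGER2 from 0.0351 and 0.0596 to 0.315 and 0.389 and then 0.862 and 0.865.

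NOS2 had 0.811 and 0.473 FPKM in vehicle, 0.875 and 0.606 on day 1, 1.33 and 0.634 on day 2, 1.18 and 0.995 on day 3, 1.02 and 1.98 on day 6, and 8.44 and 1.49 on day 12. Of the 10 CPA libraries, 8 lay above both vehicle libraries. The log2 difference was 1.08 ± 0.68 on day 6 (adjusted p = 0.50) and 2.35 ± 0.68 on day 12 (adjusted p = 0.018), and 1.13 on day 12 without the deeper library (adjusted p = 0.081). Without the shallower vehicle library it was 2.01 and no longer called (adjusted p = 0.093). The neuronal paralog NOS1 fell from 1.00 and 0.609 FPKM to 0.294 and 0.0974 on day 12 (-1.67 ± 0.51, adjusted p = 0.022), and the endothelial NOS3 had 0.994 and 1.24 FPKM in vehicle and 1.17 and 2.21 on day 12 (0.50 ± 0.28, adjusted p = 0.16). Of 12 genes tested of the nitric oxide and arginine list, 4 were called higher on day 12 and 2 lower (NOS1 and SLC7A1, the ubiquitous arginine transporter). Over all genes these shares were 17% and 8.8%, and the list median was 0.19 against -0.15. The lower ones numbered 3 without the deeper day 12 library (15.9% of all genes) and 1 without the shallower (4.18%), and 4 were called higher in either case (18.8% and 15.4% of all genes). ARG1, the arginase of myeloid cells, had 2.25 and 0.928 FPKM in vehicle, 3.65 and 6.00 on day 6, and 73.2 and 12.8 on day 12 (4.31 ± 0.80, adjusted p = 0.0024). ARG2 rose likewise, with 4.17 and 1.02 FPKM on day 12 against 0.140 and 0.143. DDAH2, which degrades an inhibitor of nitric oxide synthases, was higher in the shallower library (6.68 and 14.2 FPKM against 1.34 and 2.11 in vehicle). ASL, which regenerates arginine from citrulline, had 8.72 and 8.17 FPKM on day 12 against 7.87 and 9.27 and was not called.

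**Figure D4:**
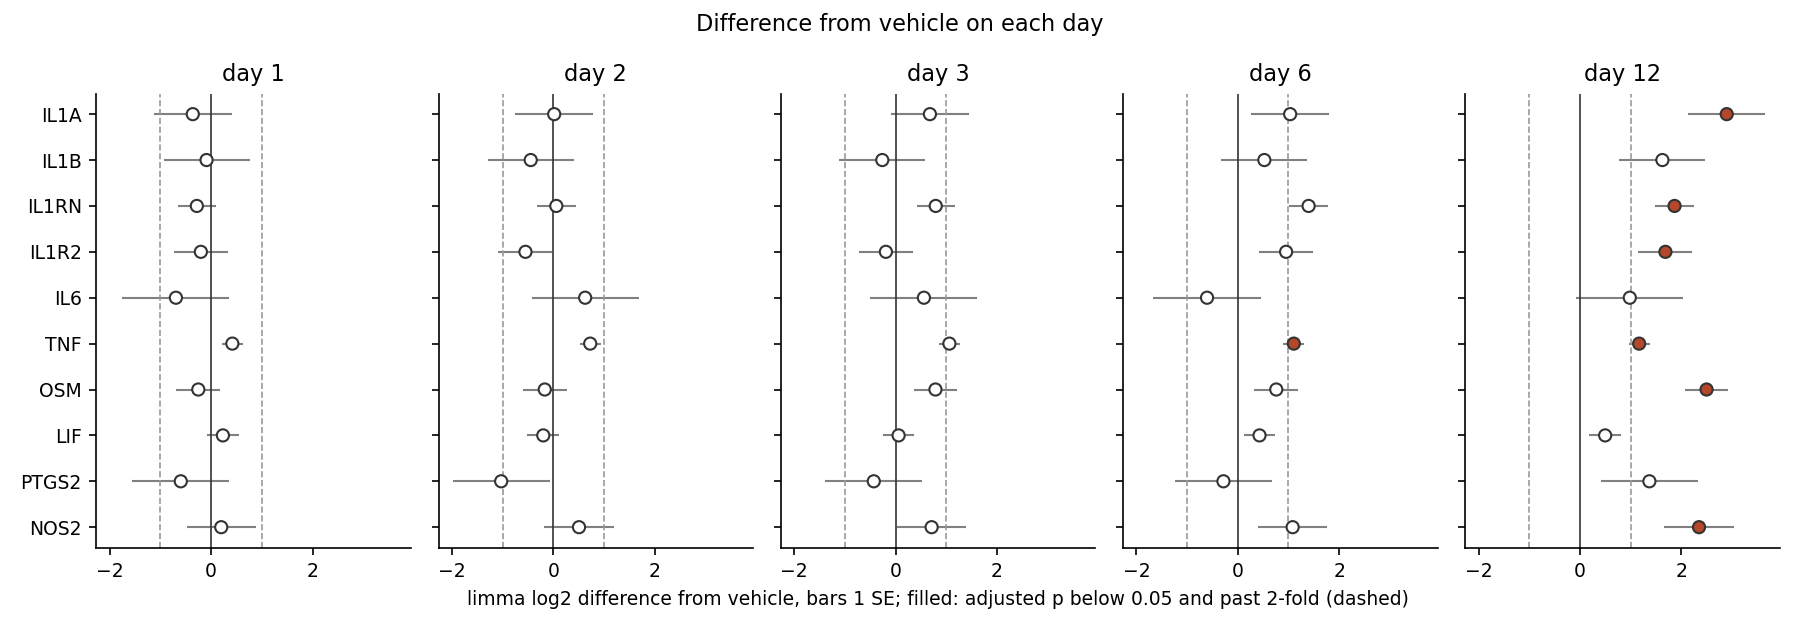
Log2 difference from vehicle of the 10 genes on each day (points, limma on 2 libraries per group, bars 1 SE), filled where the adjusted p is below 0.05 and the difference is past 2-fold (dashed lines). TNF is filled on days 6 and 12, and IL1A, IL1RN, IL1R2, OSM and NOS2 on day 12 alone.

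The size of the split between the day 12 libraries ordered the 10 genes. The deeper library exceeded the shallower 37.5-fold for IL6, 25.6-fold for PTGS2, 10.6-fold for IL1B, 9.24-fold for IL1A, 5.68-fold for NOS2, 3.51-fold for IL1R2, 3.18-fold for OSM, 2.73-fold for IL1RN, 1.76-fold for LIF and 1.57-fold for TNF. On the log2 scale with 0.1 FPKM added, the difference of IL6 exceeded that of 99.8% of the 11726 genes at 0.5 FPKM or more, and that of TNF exceeded 83.8%. IL6 reached that mean only through day 12 (group value 1.89 FPKM, 0.172 to 0.581 in the other groups). Its place is thus a description and no support for the split. Over the 10 genes the median was 2.09, against 0.16 over the 11726 genes. The 2 sets are not alike, as IL1A, LIF and PTGS2 had means of 0.397, 0.318 and 0.417 FPKM and are not among the 11726. All 10 were higher in the deeper library. The ratio was 16.3 for the summed neutrophil genes, 1.83 for those of monocytes and macrophages, 1.24 for fibroblasts, 0.791 for T and NK cells and 0.108 for adipocytes. The neutrophil and macrophage sums rest mostly on a few genes, as S100A9 had 249 and 10.9 FPKM and LYZ2 1518 and 866. Other genes of these lists differed from their sums. CD14 had 39.6 and 6.43 FPKM, FCGR3 63.3 and 18.9, CCR2 16.1 and 15.9 and CX3CR1 1.58 and 2.02. Of the neutrophil list, LTF had 3.93 and 3.95.

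**Figure D5:**
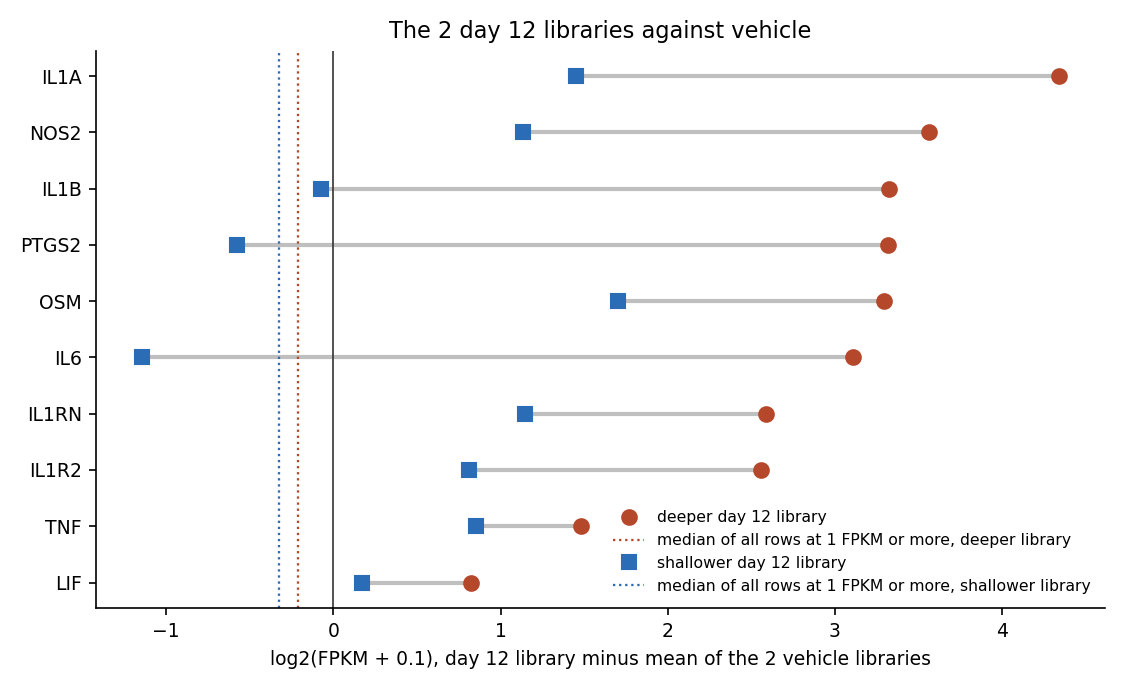
Difference of each day 12 library from the mean of the 2 vehicle libraries, as log2(FPKM + 0.1), for the 10 genes (circles, deeper library, squares, shallower), with the median of genes at 1 FPKM or more in each library (dotted). All 10 genes are higher in the deeper library, and IL1B, IL6 and PTGS2 are below 0 in the shallower.

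Against vehicle, both libraries of a day lay above both vehicle libraries for 5 of the 10 genes on day 3 (IL1A, IL1RN, TNF, OSM and NOS2), where 27.9% of all genes tested did so. On day 6 this held for 8, all but IL6 and PTGS2, against 36.1% of all genes. On day 12 it held for 7, all but IL1B, IL6 and PTGS2, against 29.7%. On day 6 the markers of monocytes and macrophages and of T and NK cells were higher too, with 8 of 11 and 9 of 9 called by limma. Of the neutrophil and adipocyte markers tested, 1 of 10 (CSF3R) and 1 of 10 (LPL) were. Over all genes 4.88% were called higher on that day. The part of these cells in the day 6 levels was not tested.

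The genes with the most similar course were sought for the 7 members at a mean of 0.5 FPKM or more, as the smallest largest difference between centred log2(FPKM + 0.1) profiles. Of these members, OSM and IL6 reached that mean only through day 12, with group values of 2.63 and 1.89 FPKM there. In the other groups they had at most 0.624 and 0.581 FPKM. Their nearest genes were thus matched in large part on the group that let them in. Over the 6 group values the nearest were CXCR4 for IL1R2 (largest difference 0.02), H2-Q4 for IL1RN (0.15), OAS1C for TNF (0.19), NME3 for IL1B (0.15), CD59A for NOS2 (0.15), EGR2 for OSM (0.23) and CLDN5 for IL6 (0.38). Several of these did not share the course by library. NME3 had 7.33 and 15.9 FPKM on day 12, CD59A 2.58 and 8.24, EGR2 1.78 and 6.03 and CLDN5 9.02 and 35.5, each higher in the shallower library where the member was higher in the deeper. Over the 12 libraries, a comparison added after the split had been seen, other genes came nearest. IL1B was nearest to CD14 (largest difference 0.80), the co-receptor for lipopolysaccharide on monocytes, with 39.6 and 6.43 FPKM on day 12. IL1RN was nearest to CLEC4N (0.31), a C-type lectin of myeloid cells, IL1R2 to CLEC5A (0.53), another, and NOS2 to IRG1 (0.59), the itaconate-making enzyme of activated macrophages with 10.9 and 2.48 FPKM on day 12. OSM was nearest to PDPN (0.47), then to SERPING1 (0.54), and CCL3, a chemokine of activated myeloid cells, was the third nearest (0.63). TNF was nearest to OAS1C (0.31) and TRIM30A (0.32) in the same way, both known as interferon-stimulated genes, and almost as near to EXT1 (0.34). IL6 had no close neighbor, with IFITM6 at 1.11 and the histamine-forming enzyme HDC at 1.18, which had 6.55 and 0.467 FPKM on day 12. These are descriptions of likeness over 6 or 12 values that share their libraries.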

How the data were processed

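RNA-seq of E0771 tumors covered 12 libraries in 6 groups. The authors aligned poly(A)-selected, stranded reads with TopHat2 to mm9, counted genes with featureCounts, used edgeR, and deposited FPKM values, 1 per group (with no tool version in the sources used here). Table columns with the authors' own fold changes and p-values were not used, nor were 4 repeat vehicle columns. Each deposited FPKM was found to be the mean of 2 libraries' values, each a whole number of reads over the library total and the gene length. Totals were found from the steps between low values (within 0.00015 of whole numbers), and then length and reads of each row, with a length limit of 12000 bases. This gave 1 solution for 20026 of 20186 rows above 0 (99.2%), and 3649 lengths equal a GENCODE transcript length. Whether 1 read is a pair was not given. The rows held 8347733 to 20887789 reads per library. The library values were tested with limma 3.58.1 in R 4.3.3 (trended eBayes, 6 residual degrees of freedom, Benjamini-Hochberg adjustment) on all 6 groups. This test replaced a plain comparison of group values after the file had been seen, and p-values cover the spread between pools only.

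Alternatives were pseudocounts of 0.01 and 1 FPKM, folds of 1.5 and 3, centring, other filters, limma voom on the recovered reads, and leaving out each library. Scripts were tested on simulated data. The 10 genes and the lists were chosen with earlier results of these data known. Named list genes were the receptors, the paralogs and up to 6 per list with the largest group difference on any day at 0.5 FPKM or more. Like genes were the 3 nearest at that level. RIKEN, Gm, LOC and Mir names were left out. IL1A, IL1B and IL1R2 overlap rows at 0.0271 to 0.0846 FPKM. Sequences come from GENCODE M21 and RefSeq.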

Additional observations from a re-analysis of the deposited data

Results flagged for a closer look

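OSM had a larger difference from vehicle on day 12 than on day 6, tested as day 12 against day 6 in limma (log2 difference 1.74 ± 0.43, adjusted p = 0.014, both day 12 libraries above both day 6 libraries). Of the 10 genes it was the only one for which this difference passed, where 8.65% of all genes tested passed, so 1 of 10 is near the background. Without the deeper day 12 library the difference was 0.94, short of 2-fold.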

How the results depend on the processing

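The 1 call on day 6 by limma (TNF) became 0 with a pseudocount of 1 FPKM and 2 (IL1RN joining) with limma voom or with both day 12 libraries left out, and the latter also gave 1 call on day 3 (TNF). Leaving out each library in turn gave 0 to 1 higher calls at day 3, 0 to 2 at day 6 and 3 to 9 at day 12, and 0 on days 1 and 2 and in the lower direction. The 3 came from leaving out the shallower vehicle library (IL1RN, TNF and OSM) or the deeper day 12 library (IL1A, IL1RN and OSM), and the 9 from leaving out the shallower day 12 library. Without the deeper day 12 library the day 12 difference turned for IL1B (-0.071), IL6 (-1.14) and PTGS2 (-0.58), and without the shallower these were 3.32, 3.11 and 3.32. On group values, members past 2-fold changed as follows. A pseudocount of 0.01 FPKM gave 1 lower at day 1, and for higher 2 at day 3 and 5 at day 6 (1 and 3 in the main setting), and a pseudocount of 1 FPKM gave 0 lower on day 2, 0 higher on day 3 and 1 on day 6. Centring or the minimum of 0.5 FPKM gave 0 lower on day 2. A fold of 1.5 gave 1 lower at day 1, and for higher 1 at day 2, 5 at day 3 and 6 at day 6, and a fold of 3 gave 0 on days 2, 3 and 6. Leaving out each library gave 0 to 1 lower on days 1, 2, 6 and 12, and for higher 0 to 1 at day 2, 0 to 5 at day 3, 2 to 5 at day 6 and 4 to 9 at day 12. The other 310 recomputed counts were within 1.5 times. Over all genes, a pseudocount of 1 FPKM changed the higher calls from 683 to 344 at day 6 and from 2374 to 1261 at day 12, and the lower ones at day 12 from 1231 to 517. Without both day 12 libraries, higher calls went from 57 to 122 at day 3. Without the deeper day 12 library 2225 genes were lower at day 12, and without the shallower 585. Without the shallower vehicle library 136 were higher at day 6. No paired analysis was possible because the recovered libraries carry no pool number. Depth limits IL1A, IL6 and PTGS2, with 0 to 46 reads a library through day 6. It also limits OSM (15 to 55 reads), LIF (24 to 74) and IL1R2 (22 to 117) over the same libraries.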
